A study of Mus musculus with 12 samples.

Results

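The Myc, Max and Mxd network was followed in mouse embryonic stem cells (ESCs) that lost the orphan nuclear receptor Esrrb. Its 9 genes, Myc, Mycn, Max, Mxd1, Mxd3, Mxd4, Mxi1, Mnt and Mlx, were chosen by name, with each gene read from the probe set that carried its symbol alone. All 9 were found among the 19938 genes with such a probe set, each with 1 probe set. These genes and the gene lists below were chosen with earlier results of these data known. Counts set beside the share of all genes therefore describe them and do not test an excess. In the Esrrb_R line, a rescue clone of rtTA-expressing AINV15 ESCs, a short hairpin RNA silences endogenous Esrrb and a GFP-tagged copy immune to the hairpin is expressed while doxycycline (Dox) is present. Total RNA was taken from 3 biological replicates with 1 µg/ml Dox (day 0) and from 3 replicates at each later time point without Dox (days 1, 3 and 5), and the 12 samples were hybridized to Affymetrix Mouse Gene 1.0 ST arrays. All groups carried the hairpin and the Dox-dependent transgene and were cultured with serum and Lif, on gelatin without feeder cells according to the methods, although the stock of the line is kept on a fibroblast feeder layer. The cells derive from a clone, and no cultures kept on Dox for 1, 3 or 5 days were measured here, so loss of Esrrb, removal of Dox and time in culture cannot be told apart.

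Myc and Mycn are basic helix-loop-helix leucine zipper factors that bind E-boxes in DNA as dimers with Max and activate genes of growth and metabolism, and Myc is a known part of self-renewal of ESCs in Lif. Mxd1, Mxd3, Mxd4, Mxi1 (also called Mxd2) and Mnt compete for Max and bring Sin3 corepressor complexes to the same sites. Mlx is a Max-like partner that dimerizes with the glucose-sensing Mondo factors Mlxip and Mlxipl and with some of the Mxd proteins, so that it links both arms of the network.

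The E-box CACGTG, the site that Max dimers recognize, was searched in the promoters of the network itself, because its members can bind such sites. RefSeq promoters (GRCm38.p6, from 250 bases before to 50 bases after a transcript start) were given for 8 of the 9 genes, in 10 promoters. Myc had none in the table. A CACGTG, which reads the same on both strands, was present for 4 of the 8 genes, Max, Mlx, Mnt and Mxd4, against 8.09% of the 27025 genes and 7.15% of the 32851 promoters of the table. The 4 sites are shown with 12 bases on each side, 5′ to 3′ on the strand of the gene, with the E-box in capitals. They lie at chr12:76962234-76962263 (Max, minus strand), chr11:101087238-101087267 (Mlx, plus strand), chr11:74830789-74830818 (Mnt, plus strand) and chr5:34187912-34187941 (Mxd4, minus strand).
Max: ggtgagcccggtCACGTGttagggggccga
Mlx: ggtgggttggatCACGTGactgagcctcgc
Mnt: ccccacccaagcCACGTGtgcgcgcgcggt
Mxd4: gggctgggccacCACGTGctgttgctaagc
Counted from the transcript start that the promoter table uses, the E-box of Max runs from position -3 to 3, and those of Mlx, Mnt and Mxd4 begin at positions -40, -123 and -219. That start is the first base of the RefSeq gene span for Mxd4, but lies 75, 583 and 118 bases inside the span for Max, Mlx and Mnt. The E-boxes of Max and Mlx therefore begin 72 and 543 bases inside the gene spans, and that of Mnt begins at -5 from the first base of its span. The half-site that Esrrb binds, AAGGTCA, searched on both strands, was in 0 of the 10 promoters of the network, against 4.72% of all promoters. Its extended form, with TC just before it, was also in 0 of 10, against 0.42% of all promoters. For 10 promoters, 0 is near both shares, and no promoter of Myc was searched. A match describes the letters of this window and does not show binding, nor does its absence show a lack of binding.

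Esrrb, the depleted gene, fell on every array after Dox removal. Its log2 signal was 11.59 ± 0.05 (SD, n = 3) at day 0, 9.13 ± 0.04 at day 1, 8.20 ± 0.14 at day 3 and 8.19 ± 0.08 at day 5. Signals were log2 values after Robust Multichip Average (RMA) normalization, array medians lay between 6.92 and 7.05, and changes were called at an adjusted p below 0.05 in limma over all 19938 genes. The 8 ESC markers had a mean log2 level of 11.92 to 11.99 per day 0 array and of 11.33 to 11.42 per day 5 array. Of them, 5, 5 and 7 were called lower at days 1, 3 and 5, against 4.48%, 13.1% and 17.6% of all genes. Since these were bulk samples, fewer cells that express a gene and less RNA per cell cannot be told apart.

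At day 1, Myc, Mycn and Max were called higher, the call of Max not holding without most single arrays. At day 3, Myc and Mlx were below day 0 whereas Mycn and, narrowly, Mxd4 were above it, and at day 5 Mxd4 and Mxi1 were above day 0. Of the 9 genes, 3 were called higher and 0 lower at day 1, against 6.45% higher and 4.48% lower among all genes. At day 3, 2 were higher and 2 lower (13.5% and 13.1% of all genes, 26.6% in either direction), and at day 5, 2 were higher and 0 lower (17.4% and 17.6% of all genes, 35% in either direction), so the number called in either direction at day 5 was not above the background. At an unadjusted p below 0.05 in limma, the counts lower were 0 at day 1 and 1 at day 5, where Myc was the gene. The 3 arrays of a day were all above or all below those of day 0 for 4, 6 and 4 of the 9 genes at days 1, 3 and 5, against 30.3%, 39.3% and 42.8% of all genes. The median change of the 9 genes was 0.09, -0.02 and -0.04 at these days, beside 0.01, 0.00 and -0.02 over all genes. Over the 4 days, 6 of the 9 genes were called by the moderated F test of limma, against 45.6% of all genes. Mxd4 passed this test narrowly (adjusted p = 0.0484). The count stayed at 6 without replicate 3 of day 0 or replicate 3 of day 5 and was 5 without any other array. Myc had the widest range of day means in the network, 1.07 on the log2 scale, followed by Mycn with 0.45, Mxi1 with 0.39, Max with 0.30, Mlx with 0.27 and Mxd4 with 0.23. The ranges of Mxd3, Mnt and Mxd1 were 0.19, 0.12 and 0.08, and these 3 genes were not called.

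**Figure D1:**
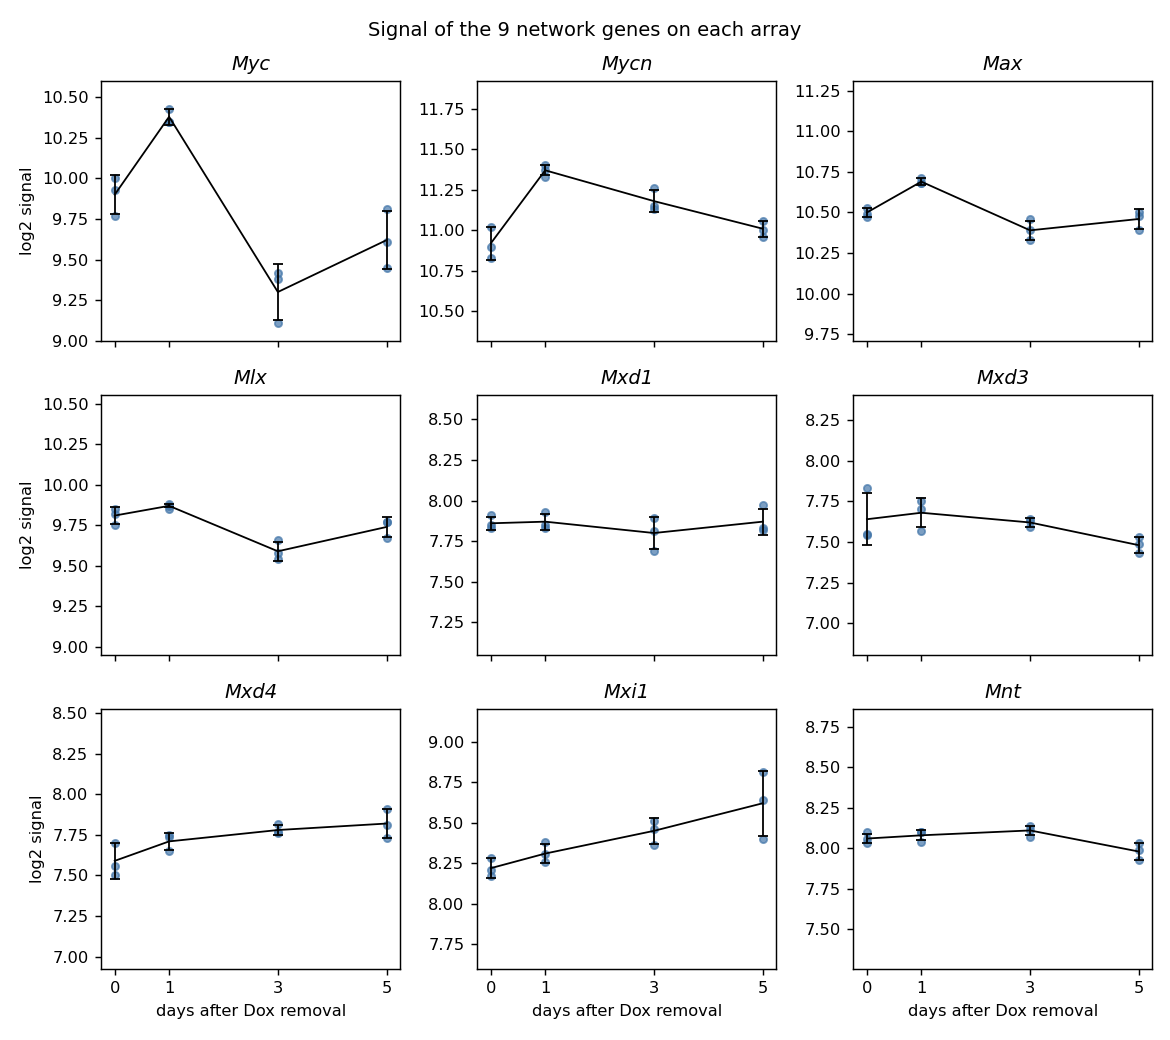
RMA log2 signal of each of the 9 genes on every array (points, 3 per day) against days after Dox removal, with the day mean joined by a line and the SD as bars. Panels cover the same width of log2 values around each gene, and the Myc panel shows the rise from 9.90 at day 0 to 10.38 at day 1 and the fall to 9.30 at day 3.

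Myc rose and then fell below its starting level. The day 0 arrays read 9.93, 10.00 and 9.77, and those of day 1 read 10.35, 10.43 and 10.35. The day 3 arrays read 9.11, 9.38 and 9.42. All day 1 arrays were above, and all day 3 arrays below, every array of day 0. The rise at day 1 was 0.48 (SE 0.10, 1.39-fold, adjusted p = 0.0088 from limma), and 256 genes rose by more. At day 3, the log2 change from day 0 was -0.60 (SE 0.10, adjusted p = 0.00064 from limma). Between days 1 and 3, Myc dropped by 1.07 on the log2 scale (SE 0.10, 95% interval -1.29 to -0.85, adjusted p = 1.5e-05 from limma), and 65 of all genes had a larger fall between these days. At day 5 the arrays read 9.81, 9.45 and 9.61. These values were above all day 3 arrays and overlapped those of day 0. The rise from day 3 to day 5 was 0.32 (SE 0.10, adjusted p = 0.033 from limma), which was not called without replicate 1 of day 3 (adjusted p = 0.14), replicate 1 of day 5 (0.14) or replicate 3 of day 5 (0.074). Against day 0, Myc at day 5 differed by -0.28 (95% interval -0.49 to -0.06, adjusted p = 0.0502 from limma) and was not called, but was called without replicate 3 of day 0 (adjusted p = 0.031), replicate 1 of day 3 (0.03) or replicate 1 of day 5 (0.014).

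The mean level of fibroblast markers was lower at day 3, where Myc and Mlx were also below day 0. The mean log2 level of the 10 markers was 6.96 to 7.09 per array at day 0, 6.97 to 7.0 at day 1, 6.67 to 6.71 at day 3 and again 6.96 to 7.09 at day 5. At day 3, 5 of the 10 were called lower and 1 higher, beside 13.1% and 13.5% of all genes. Col1a2 and Col1a1 differed from day 0 by -1.44 and -0.98, whereas Thy1 was 0.37 above it. Between days 3 and 5, 6 were called higher and 1 lower, beside 13% and 12.2% of all genes. The 1 lower was Thy1, by -0.65. Lum, Fap and Postn read below 6.28, the cutoff for dim genes, on every array. Between days 0 and 1, where Myc rose, 0 of the 10 were called by limma in either direction, beside 10.9% of all genes. The count was also 0 at an unadjusted p below 0.05 in limma. Their part in the change of Myc and Mlx was not tested.

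Mycn, the paralog of Myc, rose at day 1 and stayed higher at day 3. The day 0 arrays read 11.02, 10.90 and 10.83, the day 1 arrays 11.33, 11.37 and 11.40, and the day 3 arrays 11.15, 11.26 and 11.13. No array of day 1 or day 3 overlapped day 0. The rise at day 1 was 0.45 (SE 0.06, 1.37-fold, adjusted p = 0.00052 from limma), and the rise at day 3 was 0.26 (SE 0.06, adjusted p = 0.0067 from limma). At day 5, with arrays between 10.96 and 11.06, Mycn overlapped day 0 and the difference of 0.09 (95% interval -0.04 to 0.23, adjusted p = 0.28 from limma) was not called. The differences of -0.19 from day 1 to day 3 (adjusted p = 0.0514 from limma) and of -0.17 from day 3 to day 5 (adjusted p = 0.066 from limma) were not called, although in each pair all arrays of the later day lay below those of the earlier day. The former was called without replicate 1 of day 0 (adjusted p = 0.041), replicate 3 of day 0 (0.039) or replicate 2 of day 3 (0.044).

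The Myc signal relative to that of Mycn was taken within each array, where only its change between days can be read, since the probe sets differ. The difference of Myc minus Mycn on the log2 scale was -1.09, -0.90 and -1.06 at day 0 and -0.98, -0.94 and -1.05 at day 1. It was -2.04, -1.88 and -1.71 at day 3 and -1.15, -1.55 and -1.46 at day 5. The arrays of days 0 and 1 overlapped, whereas all arrays of days 3 and 5 lay below those of day 0. Relative to the day 0 mean, the shift was 0.03, -0.86 and -0.37 at days 1, 3 and 5, with two-sided exact permutation p of 0.7, 0.1 and 0.1, where 0.1 is the smallest that 3 arrays against 3 allow. Over the 4 days the exact permutation p was 0.00045 (0.0018 adjusted over the 4 tests). Myc and Mycn were thus both above day 0 at day 1, and at day 3 Myc lay below day 0 while Mycn lay above it.

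**Figure D2:**
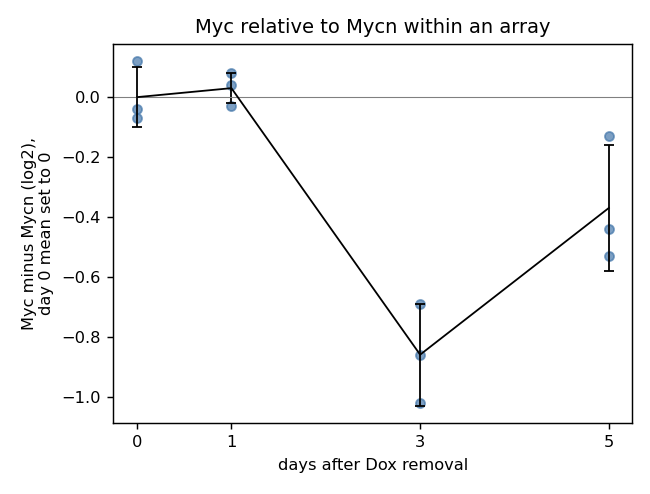
Myc minus Mycn (log2) within each array, set to 0 at the day 0 mean, against days after Dox removal, with points for the 3 arrays per day and the mean with its SD. The means at days 1, 3 and 5 were 0.03, -0.86 and -0.37.

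Max, a partner of Myc, Mycn, the Mxd proteins and Mnt, moved in the direction of Myc with smaller changes. The arrays read 10.53, 10.47 and 10.49 at day 0 and 10.68, 10.71 and 10.68 at day 1. Those of day 3 read 10.46, 10.39 and 10.33, and those of day 5 read 10.50, 10.39 and 10.48. All arrays of day 1 were above those of day 0, and all arrays of day 3 were below those of both earlier days. The rise at day 1 was 0.19 (SE 0.05, 1.14-fold, adjusted p = 0.037 from limma). This call was lost without any 1 of the 6 arrays of days 0 and 1 (adjusted p = 0.067 to 0.11) and without replicate 2 of day 3 (0.0537). From day 1 to day 3, Max fell by 0.30 (SE 0.05, adjusted p = 0.0017 from limma), whereas its differences from day 0 of -0.10 at day 3 (adjusted p = 0.20) and -0.04 at day 5 (adjusted p = 0.65) were not called by limma.

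Among the Max-binding repressors, Mxd4 and Mxi1 were higher late in the time course. Mxi1 read 8.17, 8.28 and 8.21 at day 0, 8.38, 8.26 and 8.31 at day 1, 8.51, 8.36 and 8.46 at day 3 and 8.40, 8.81 and 8.64 at day 5. The arrays of day 1 overlapped day 0, and those of days 3 and 5 did not. The rise at day 5 was 0.39 (SE 0.09, 1.31-fold, adjusted p = 0.0031 from limma), and the differences of 0.09 at day 1 and 0.22 at day 3 were not called by limma (adjusted p = 0.60 and 0.081). The difference at day 3 was called without replicate 1 of day 5 (adjusted p = 0.026) or replicate 2 of day 5 (0.036).

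Mxd4, a repressor of Max sites linked to cell cycle exit, read 7.56, 7.50 and 7.70 at day 0 and 7.65, 7.74 and 7.75 at day 1. It read 7.82, 7.77 and 7.76 at day 3 and 7.81, 7.91 and 7.73 at day 5. Arrays of days 3 and 5 were all above those of day 0, and those of day 1 overlapped them. Mxd4 rose by 0.23 at day 5 (SE 0.07, 1.17-fold, adjusted p = 0.016 from limma), which no longer passed without replicate 1 of day 0 (adjusted p = 0.0523), replicate 2 of day 0 (0.069) or replicate 2 of day 5 (0.066). Its change of 0.19 at day 3 passed narrowly (adjusted p = 0.0487 from limma) and was lost without 9 of the 12 arrays taken 1 at a time, with adjusted p up to 0.17 without replicate 2 of day 0. The 3 arrays whose removal kept this call were replicate 3 of day 0 and replicates 2 and 3 of day 5.

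The other repressors stayed near their starting levels. Mxd1, which is known to rise as many cell types differentiate, lay between 7.69 and 7.97 on all 12 arrays, and its differences from day 0 were 0.01, -0.06 and 0.01 at days 1, 3 and 5. The 95% intervals of these differences stayed between -0.21 and 0.15. Mxd3, a member of the family found in dividing cells, read 7.55, 7.54 and 7.83 at day 0 and 7.49, 7.43 and 7.53 at day 5. All its day 5 arrays were below day 0, with a difference of -0.16 (95% interval -0.33 to 0.01, adjusted p = 0.14 from limma) that was not called. Mnt, the broadly expressed antagonist of Myc, lay between 7.93 and 8.14 on all arrays. Its differences were 0.02, 0.04 and -0.08 at days 1, 3 and 5 (95% interval at day 5 -0.19 to 0.03, adjusted p = 0.28 from limma), and all day 5 arrays were below day 0.

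Mlx, the Max-like partner of the Mondo factors, was lower at day 3. Its arrays read 9.75, 9.85 and 9.82 at day 0, 9.87, 9.85 and 9.88 at day 1, 9.66, 9.54 and 9.58 at day 3 and 9.77, 9.77 and 9.67 at day 5. The day 3 arrays were below all arrays of the other days, and those of day 5 overlapped day 0. Mlx fell by 0.22 from day 0 to day 3 (SE 0.05, 1.16-fold, adjusted p = 0.01 from limma) and by 0.27 from day 1 to day 3 (SE 0.05, adjusted p = 0.0032 from limma). The differences of 0.06 at day 1 and -0.07 at day 5 against day 0 were not called (adjusted p = 0.59 and 0.36 from limma). From day 1 to day 3, Myc, Max and Mlx were thus called lower, and 0 of the 9 genes were called higher either by the adjusted test of limma or at an unadjusted p below 0.05, against 9.2% higher and 11.6% lower (20.8% in either direction) among all genes. From day 3 to day 5, Myc was the 1 gene called, with 0 lower (2 at an unadjusted p below 0.05 in limma), beside 13% of all genes called higher and 12.2% lower (25.3% in either direction).

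**Figure D3:**
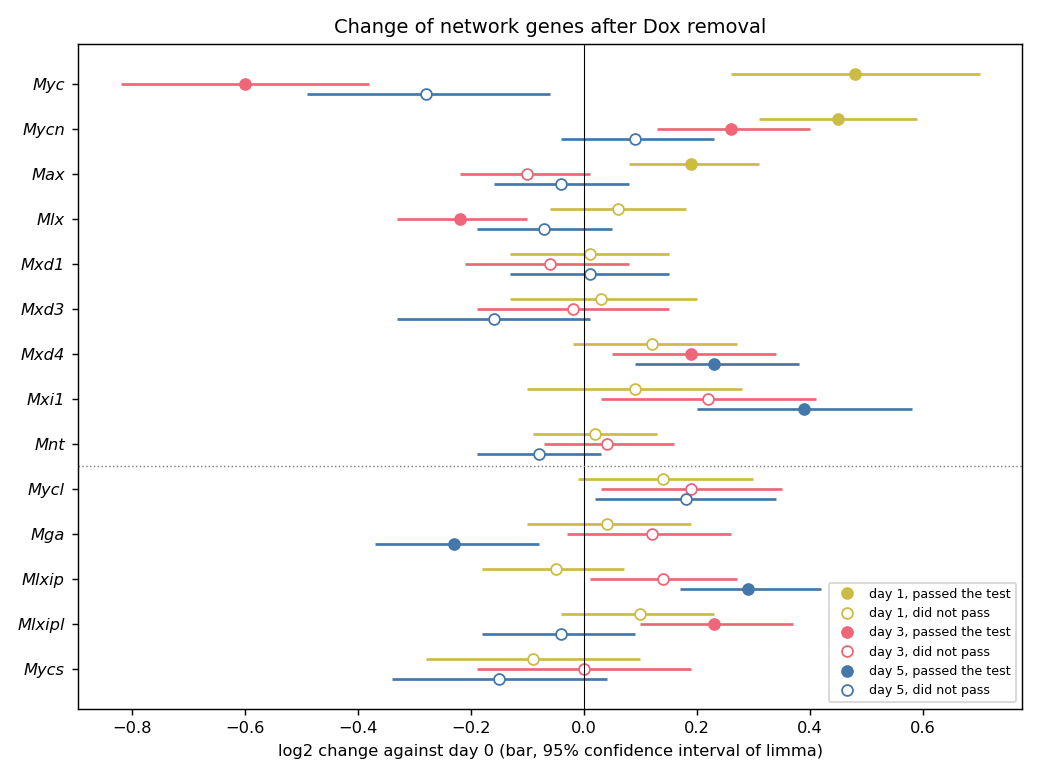
Log2 change against day 0 at days 1, 3 and 5 for the 9 genes and the 5 genes of the extended network, with 95% intervals of the limma fit as bars and filled points where the adjusted p was below 0.05. Myc shows the largest changes of the 9, 0.48 at day 1 and -0.60 at day 3, and Mxi1 rises by 0.39 at day 5.

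Further genes of the extended network were Mycl, Mga, Mlxip, Mlxipl and Mycs. Of these 5, 0 were called at day 1 by limma (also 0 at an unadjusted p below 0.05), 1 was higher at day 3, and 1 was higher and 1 lower at day 5. Over all genes, 13.5% were higher at day 3 and 17.4% higher and 17.6% lower at day 5, so 1 of 5 is near the background. Without replicate 3 of day 0, 1 was higher at day 1, 2 at day 3 and 2 at day 5. Mlxip (MondoA), which senses glucose phosphates as a dimer with Mlx, read 7.66, 7.66 and 7.67 at day 0 and 7.99, 7.84 and 8.04 at day 5, where it rose by 0.29 (SE 0.06, adjusted p = 0.0014 from limma). Mlxipl (ChREBP), its relative, rose at day 3 by 0.23 (SE 0.06, adjusted p = 0.015 from limma) and fell by 0.27 from day 3 to day 5 (adjusted p = 0.0058 from limma). Mga, a large Max partner of a Polycomb complex that represses germline genes, read 10.84, 10.71 and 10.69 at day 0 and 10.39, 10.62 and 10.55 at day 5, a fall of 0.23 (SE 0.07, adjusted p = 0.019 from limma). At day 5, all arrays of Mlxip were above, and all arrays of Mga below, those of day 0. The call of Mga was lost without replicate 1 of day 0 (adjusted p = 0.086) or replicate 1 of day 5 (0.084), and the day 3 call of Mlxipl without replicate 2 of day 0 (0.0516) or replicate 3 of day 3 (0.063). Mycl, another Myc paralog, differed from day 0 by 0.14, 0.19 and 0.18 at days 1, 3 and 5 without passing the limma test (adjusted p = 0.26, 0.078 and 0.076). Mycs, a gene close to Myc in sequence, was not called at any day.

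Among cofactors and stability factors of Myc, 22 genes were analysed here. At day 1, 2 were called higher and 1 lower, at day 3, 5 higher and 4 lower, and at day 5, 4 higher and 7 lower, with median changes of 0.03, 0.01 and -0.08 beside 0.01, 0.00 and -0.02 over all genes. At day 1, limma called 6.45% of all genes higher and 4.48% lower, with 13.5% and 13.1% at day 3 and 17.4% and 17.6% at day 5, and the counts of 2 and 1 at day 1 and of 4 higher at day 5 are near them. Usp28, a deubiquitinase known to stabilize Myc protein, rose by 0.40 at day 1 (adjusted p = 0.015 from limma) and by 0.44 at day 3 (0.0032), then lay 0.67 below day 0 at day 5, a change of -0.67 (7.8e-05). Its arrays read 10.52, 10.55 and 10.45 at day 0, 11.03, 10.90 and 10.92 at day 3 and 9.67, 10.10 and 9.74 at day 5, without overlap between these days. Fbxw7, the ubiquitin ligase subunit that marks phosphorylated Myc for degradation, fell by 0.24 at day 3 (adjusted p = 0.029 from limma) and by 0.25 at day 5 (0.017), whereas Gsk3b, the kinase that prepares Myc for Fbxw7, rose by 0.34 at day 5 (0.0013). The Fbxw7 signal was low, 6.28 to 6.78 over all arrays, near the cutoff of 6.28 for dim genes. Fbxw7, Bptf and Trrap were each read as the mean of 2 probe sets. Cip2a, an inhibitor of the phosphatase PP2A that protects Myc, was lower at each day, by -0.20, -0.27 and -0.19 (adjusted p = 0.045, 0.004 and 0.027 from limma). Among chromatin partners, Bptf, a nucleosome remodeling subunit, rose at days 1 and 3, Trrap, a scaffold of histone acetyltransferases, rose by 0.37 at day 5 (adjusted p = 0.00013), and Wdr5, an adaptor of H3K4 methylation complexes, fell by 0.23 at day 3 and by 0.37 at day 5 (0.00043). Mycbp2, a ubiquitin ligase that binds Myc, rose by 0.38 and 0.44 at days 3 and 5, and Mycbp, a Myc-binding protein, fell by 0.25 at day 3.

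Counts of these cofactors rested in part on single arrays. The count higher at day 1 was 0 without replicate 2 of day 1 and 1 without replicate 2 of day 0 or replicate 1 or 3 of day 1. Cip2a was the 1 gene lower at day 1, and its call was lost without 9 of the 12 arrays taken 1 at a time (adjusted p up to 0.15, without replicate 2 of day 0). The count higher at day 3 was 2 without replicate 2 of day 3 and 3 without replicate 2 of day 0, replicate 3 of day 0 or replicate 3 of day 3. Without replicate 2 of day 0, the counts lower were 1 at day 3 and 4 at day 5, with Fbxw7 at an adjusted p of 0.12 and 0.073, Wdr5 at day 3 at 0.06, Mycbp at day 3 at 0.0501 and Cip2a at day 5 at 0.1. Calls were also lost for Usp28 at day 1 without replicate 2 of day 1 (adjusted p = 0.061), for Fbxw7 at day 3 without replicate 3 of day 3 (0.13), for Wdr5 at day 3 without replicate 1 of day 3 (0.063), and for Cip2a at day 5 without replicate 1 of day 0 (0.071) or replicate 2 of day 5 (0.09). Bptf at day 1 was not called without any 1 of replicates 2 and 3 of day 0 or the 3 arrays of day 1 (adjusted p = 0.0525 to 0.068), nor at day 3 without replicate 2 of day 3 (0.056).

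Of genes that Myc is known to induce, 30 of 30 were measured. At day 1, 5 were called higher and 0 lower (2 lower at an unadjusted p below 0.05 in limma), at day 3, 4 higher and 5 lower, and at day 5, 3 higher and 10 lower. Over all genes, the share called lower likewise went from 4.48% at day 1 to 13.1% and 17.6% at days 3 and 5, and the share called higher from 6.45% to 13.5% and 17.4%. The median change of the list was 0.04, -0.03 and -0.09 at these days. From day 1 to day 3, 1 gene was called higher and 9 lower, beside 9.2% and 11.6% of all genes. The rises at day 1 included Srm, the spermidine synthase, by 0.37 (adjusted p = 0.003 from limma), Cad, which begins pyrimidine synthesis, by 0.29 (0.021), Prmt5, an arginine methyltransferase, by 0.26 (0.023), and Ldha, the lactate dehydrogenase subunit, by 0.24 (0.01). At day 3, when Myc was below day 0, Cad and Ldha were 0.46 and 0.37 above it, as was Tert, the telomerase reverse transcriptase, by 0.37. Ccnd2, cyclin D2, fell by 0.55 at day 3 (adjusted p = 0.0023 from limma) and was 0.42 above day 0 at day 5 (0.0094), while E2f2, an S phase transcription factor, fell by 0.42 at day 3. The genes with the largest falls at day 5 were Dkc1, the pseudouridine synthase, by -0.41 (adjusted p = 5.7e-05 from limma), Polr1b, a subunit of RNA polymerase I, by -0.37 (0.00014), and Bop1, a factor of 60S assembly, by -0.31 (0.0054), while Mcm4, a subunit of the replicative helicase, was 0.22 above day 0. A CACGTG was present in the promoters of 6 of 22 genes of this list with a promoter in the table (27.27%), beside 8.09% of all 27025 genes. The 6 were Cdk4, Eif4a1, Eif4e, Hspd1, Ldha and Nme1. The list holds known Myc targets, so this share describes the list and tests nothing.

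For this list, the count higher at day 1 was 2 without replicate 2 or 3 of day 1 and 3 without replicate 1 or 3 of day 0, and Cad and Prmt5 were among the calls lost (adjusted p up to 0.087 and 0.1). The count lower at day 3 was 3 when replicate 1 or 2 of day 0, or replicate 1 or 3 of day 3, was left out. The count lower at day 1 was 1 without replicate 1 of day 0 or replicate 2 of day 3. Mean log2 levels of 9 markers of dividing cells were 11.42 to 11.48 per array at day 0, 11.45 to 11.47 at day 1, 11.51 to 11.52 at day 3 and 11.44 to 11.51 at day 5. These means cover changes in both directions, from -0.27 to 0.36 at day 3. At day 1, 1 marker was called higher and 0 lower (6.45% and 4.48% of all genes). At days 3 and 5, 1 was higher and 1 lower (13.5% and 13.1%, then 17.4% and 17.6%).

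Of genes that Myc is known to repress, 5 of 6 were measured. At day 1, 0 were called in either direction by limma (0 higher and 1 lower at an unadjusted p below 0.05), and at days 3 and 5, 3 were called higher and 1 lower, beside 13.5% higher and 13.1% lower at day 3 and 17.4% and 17.6% at day 5 over all genes. Ndrg1, a stress and differentiation gene, rose by 0.71 at day 3 (adjusted p = 0.0013 from limma) and 0.58 at day 5 (0.0038). Cdkn1b, the cell cycle inhibitor p27, rose by 0.34 at day 3 and by 0.22 at day 5 (adjusted p = 0.035 from limma). The day 5 call of Cdkn1b was lost without replicate 1 or 3 of day 0 or replicate 2 or 3 of day 5 (adjusted p up to 0.14). The count higher at day 5 was then 2. Cdkn2b, the inhibitor p15, rose by 0.64 at day 5 (adjusted p = 2.2e-05 from limma), while Gadd45a, a DNA damage response gene, fell by 0.38 at day 3 (0.0011). Ndrg2 changed in both directions, 0.69 above day 0 at day 3 (adjusted p = 0.00017) and -0.79 at day 5 (3.1e-05).

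Of target genes of Mlx and the Mondo factors, 7 of 7 were measured. At days 1 and 3, 5 of the 7 were called higher and 0 lower, with median changes of 0.27 and 0.28, and at day 5, 3 were higher and 0 lower with a median of 0.07. Over all genes, 6.45%, 13.5% and 17.4% were called higher at days 1, 3 and 5. Arrdc4, a relative of Txnip, and Pklr, the liver pyruvate kinase, were not called at day 1 (0.16 and -0.02, adjusted p = 0.14 and 0.92 from limma) or day 3. The counts lower at an unadjusted p below 0.05 in limma were 0, 0 and 2. Txnip, a brake on glucose uptake, rose by 0.58, 0.86 and 0.32 at days 1, 3 and 5 (adjusted p = 0.00096, 9.8e-06 and 0.013 from limma). Fasn, the fatty acid synthase, rose by 0.47, 0.44 and 0.31, and Khk, which phosphorylates fructose, by 0.29 at day 1 and 0.84 at day 3 (adjusted p = 2.4e-07 from limma). From day 3 to day 5, 5 of the 7 were called lower and 0 higher by limma, beside 12.2% lower and 13% higher among all genes. These counts were the same at an unadjusted p below 0.05 in limma. Mlx itself was called lower at day 3, when these genes were above day 0. Khk had the weakest of the 3 calls at day 5 (0.16, adjusted p = 0.044 from limma), which was lost without 9 of the 12 arrays taken 1 at a time. The count higher at day 5 stayed at 3 only without replicate 3 of day 0 or replicate 2 of day 1. It was 1 without replicate 1 of day 0, with Txnip at an adjusted p of 0.062, and 2 without any other array. Without replicate 2 of day 5, Txnip was at 0.0524. The count lower at day 5 was 2 without replicate 3 of day 0 and 1 without replicate 2 of day 1, replicate 3 of day 1 or replicate 2 of day 5.

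**Figure D4:**
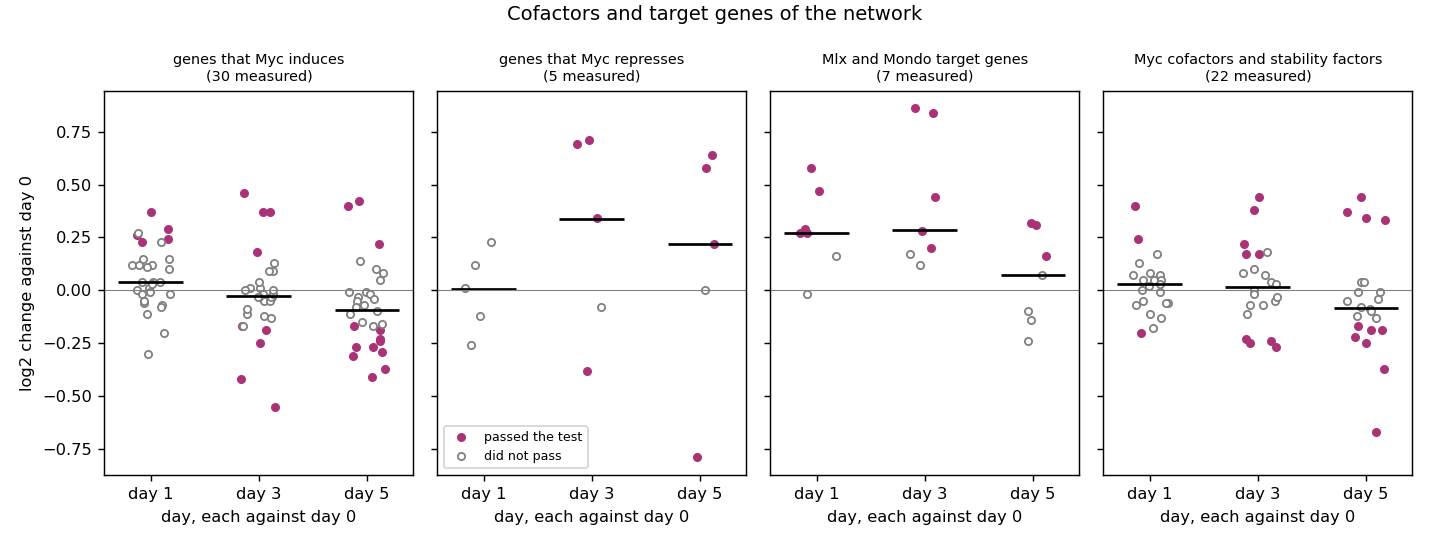
Log2 change against day 0 at days 1, 3 and 5 of each measured gene of the lists of cofactors and stability factors, genes that Myc induces, genes that Myc represses and targets of Mlx and the Mondo factors, with list medians as bars and filled points where the adjusted p was below 0.05. The median of genes that Myc induces goes from 0.04 to -0.03 and -0.09, and that of Mlx and Mondo targets from 0.27 and 0.28 to 0.07.

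The time courses most like those of Myc and Mycn were ranked by the root mean square difference of the 4 centred day means, among the 9969 genes with a mean signal above the median. Dkk1, a secreted Wnt antagonist, was nearest to Myc with a difference of 0.074 on the log2 scale. Pmm2, Calml4, Zfp428 and Plk3 followed, at 0.102 to 0.122. For Mycn the nearest were Pgp, Mien1, Naprt, Tmem238 and Zfp747, at 0.031 to 0.039. The smaller differences for Mycn go with its narrower range over the days, 0.45 against 1.07 for Myc.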

How the data were processed

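Messenger RNA was measured on 12 arrays of Esrrb_R ESCs, 3 biological replicates at each of days 0, 1, 3 and 5 of Dox removal. The authors deposited log2 values, 1 for each probe set and array, from RMA normalization in Affymetrix Expression Console (versions are not given in the sources used here). The platform annotation gave 1 symbol for 21789 of 35557 probe sets, several for 1621 and none for 12147. Probe sets with 1 symbol were averaged per gene, after the methods, which gave 19938 genes. Identifiers of 21698 were found in RefSeq GRCm38.p6, which changed 0 symbols.

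Genes were tested with limma 3.58.1 (lmFit, eBayes, run in R 4.3.3), fitting the 4 day means together (8 residual and 4.63 prior degrees of freedom), with Benjamini-Hochberg adjustment over all genes and a threshold of 0.05. The script was tested on simulated data with 200 changed genes: changes of 0.5 on the log2 scale were found in 79.1%, 74.6% and 74.6% of cases at days 1, 3 and 5. The false calls numbered 6, 10 and 9. Smaller changes were not simulated, and the arrays gave 2180, 5294 and 6980 called genes at these days. The rates therefore check the script and do not carry over to the arrays. Lists are given as counts and medians without a set test. Named from each list were up to 3 called genes with the largest rise and up to 3 with the largest fall at each of days 1, 3 and 5, and of the neighbours the 5 nearest. The genes, lists and rules were chosen with earlier results of these data known. Alternatives were every probe set, the brightest probe set per gene, quantile normalization, array quality weights, a trended robust variance, removal of dim genes, a replicate block, the methods' test and leaving out each array. Python 3.11.15 with pandas 2.3.3, scipy 1.17.1, numpy 2.4.6 and matplotlib 3.10.9 made the tables and figures.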

Additional observations from a re-analysis of the deposited data

How the results depend on the processing

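Array number and signal over background limit the precision here, as arrays have no read depth. Under settings other than leaving out arrays, 315 changes of the 9 genes were recomputed, of which 91 were called in the reported analysis: 8 calls were lost, 17 were gained and 0 called changes took another sign. With 1 array left out in turn, 22 of 156 calls were lost, 9 were gained and 0 reversed. Uncalled differences took another sign in 4 and 10 cases. The causes of the changes below were not tested. Myc minus Mycn at day 1 was -0.01 without day 0 replicate 1, against 0.03 (range -0.01 to 0.08 over single arrays left out).

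Of the 9 genes, the count higher at day 3 was 1 (2 reported) with every probe set, quantile normalization or the replicate block, and 3 with array weights, a trended robust variance or without dim genes. The count lower at day 5 was 1 with array weights, a trended robust variance or without dim genes, and 2 with quantile normalization (0 reported), where Mnt joined Myc (-0.14, adjusted p = 0.039 from limma). From day 3 to day 5 the count higher was 0 with every probe set, quantile normalization or the block, and 2 with a trended robust variance or without dim genes (1 reported), and the count lower was 2 with quantile normalization and 1 with a trended robust variance or without dim genes (0 reported). The count called over the time course by the moderated F test was 5 with every probe set, quantile normalization or the block (6 reported). With the methods' one-way test, Bonferroni adjustment and a change over 2-fold, 0 of the 9 genes passed over the time course, against 6. Myc had an unadjusted p of 8.2e-05 in that test.

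In the extended network, the count higher was 2 at day 3 and 2 at day 5 with array weights or without dim genes (1 and 1 reported). Cofactors lower at day 1 were 0 with every probe set or the block (1 reported). Genes that Myc induces higher at day 1 were 8 with array weights or a trended robust variance (5 reported), and higher at day 5 were 5 with the latter (3 reported). With a trended robust variance, 1 gene that Myc represses was lower at day 1 (0 reported). Genes that Myc represses higher at day 5 were 2 with quantile normalization or the block (3 reported). Mlx and Mondo targets lower at day 5 were 1 with array weights, quantile normalization, a trended robust variance or without dim genes (0 reported). Those higher at day 5 were 2 with every probe set, quantile normalization, the block or a trended robust variance (3 reported).

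With single arrays left out, the 9 genes had 1 to 3 higher at day 3, 1 to 2 higher and 0 to 1 lower at day 5, and 0 to 1 higher from day 3 to day 5. Over the time course, 5 to 6 of the 9 were called. The extended network had 0 to 1 higher at day 1, 0 to 2 higher at day 3, and 1 to 2 higher and 0 to 1 lower at day 5. Cofactors had 0 to 2 higher and 0 to 1 lower at day 1, 2 to 6 higher and 1 to 4 lower at day 3, and 4 to 7 lower at day 5. Genes that Myc induces had 2 to 7 higher and 0 to 1 lower at day 1, and 3 to 6 lower at day 3. Genes that Myc represses had 2 to 3 higher at day 5. Mlx and Mondo targets had 1 to 3 higher and 0 to 2 lower at day 5.

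No pairing by replicate number was seen: correlations of deviations between arrays of the same number lay between -0.17 and 0.07 over 18 pairs, and 2 of the 12 arrays were closest to an array of their own number. The labels give replicate numbers only, and these correlations cannot exclude that the samples were paired. With the replicate number as a block, Max at day 1 had an adjusted p of 0.059, Mxd4 at day 3 of 0.081 and Myc from day 3 to day 5 of 0.057, all from limma. No other call of the 9 genes between 2 days changed. The count called over the time course by the moderated F test was 5 with the block (6 reported).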
